A study of Mus musculus with 12 samples.

Results

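The genes described here are the interferon-stimulated genes, the interferon regulatory factors (IRFs) and the STAT transcription factors of mouse lung. They were chosen by gene symbol alone, from the families Ifit, Ifitm, Ifi, Gbp, Oas, Irgm, Irf and Stat together with Isg15, Isg20, Mx1, Mx2, Rsad2, Usp18, Iigp1, Igtp, Bst2, Ddx58, Ifih1 and Dhx58. This gave 75 of the 20793 entries of the deposited table. RNA was sequenced from frozen whole lungs of C57BL/6J mice, an inbred laboratory strain, in 12 libraries that form 4 groups of 3. The groups were a 60% fat diet with more than 95% oxygen, a 10% fat diet with more than 95% oxygen, a 60% fat diet with room air and a 10% fat diet with room air. The diets were given for 12 weeks; the duration of the exposure, its order relative to the diet and the age and sex of the mice are not given in the sources used here. By its title the series concerns obesity from diet and hyperoxic lung injury, so oxygen was set against room air within each diet, and 60% against 10% fat within each exposure. Each library is labelled as a separate sample, but no animal is named for it, so p-values measure the spread between libraries alone, which may be technical.

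Interferons are secreted cytokines that cells release when they sense viral nucleic acid or are stimulated by immune cells. Their receptors activate kinases of the JAK family, which phosphorylate STAT proteins. STAT proteins together with IRF9 bind the interferon-stimulated response element (ISRE), whereas STAT pairs bind the gamma-activated site (GAS). The genes switched on in this way encode antiviral effectors, and many of them are also read at a steady low level in healthy lung, where epithelium and resident immune cells meet inhaled microbes.

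Values are RPKM, reads scaled to gene length in kilobases and to the mapped reads of the library, which allow levels to be set side by side between genes. Differences are on the scale log2(RPKM + 0.5), which understates the change of genes with low values. A gene was called when its limma p-value, adjusted by the method of Benjamini and Hochberg over all 13324 genes tested, was under 0.05. Of the 75 members, 63 were tested, having at least 1 RPKM in at least 3 libraries. Of these, 51 had at least 1 RPKM in all 12 libraries, 11 passed in at least 3 libraries of each exposure, and Oas3 passed through its room-air libraries alone. The 12 members below the filter were Gbp1, Gbp10, Gbp11, Ifi202b, Ifi27l2b, Ifi44l, Ifitm7, Oas1d, Oas1e, Oas1f, Oas1g and Oas1h. Summed RPKM over all entries ran from 538746 to 550738 under oxygen and from 587187 to 731004 in room air, and rough depths were 20.5 to 28.2 M reads per library. Over the 75 members the sums were 1764.5 to 2035 RPKM in oxygen libraries and 2334.1 to 2516.5 RPKM in room-air libraries. The exposures did not overlap in these sums, but neither did they in the sums over all entries. Much of the member sums came from Ifitm2 and Ifitm3, at 399 to 615 RPKM, which were called in neither diet. The sums therefore do not show a fall across the members.

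Under oxygen most interferon-related genes stood lower than in room air, in both diets. On 60% fat, 45 of the 63 tested members fell and 4 rose; over all tested genes 36.5% fell and 26.3% rose, 62.8% in either direction. On 10% fat, 43 of the 63 fell and 3 rose, where 34.2% of all tested genes fell and 25.3% rose, 59.5% in either direction. The median log2 change of the members was −0.82 on 60% fat and −0.86 on 10% fat, beside −0.09 and −0.08 over all tested genes. Among the 51 members with at least 1 RPKM in every library, 37 fell and 3 rose on 60% fat, beside 34.7% and 27.3% of 11880 such genes, and 36 fell and 2 rose on 10% fat, beside 32.5% and 26.2%. In both diets 42 members fell and 3 rose, namely Ifit3, Mx1 and Stat3, and 0 were called in opposite directions. On 60% fat 46 members lay wholly lower under oxygen without overlap between the libraries and 4 wholly higher, beside 38.2% and 28.2% of all tested genes. On 10% fat the numbers were 46 and 2, beside 38.8% and 28.7%. In whole lung, fewer cells of a type and less RNA per cell cannot be told apart.

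**Figure D1:**
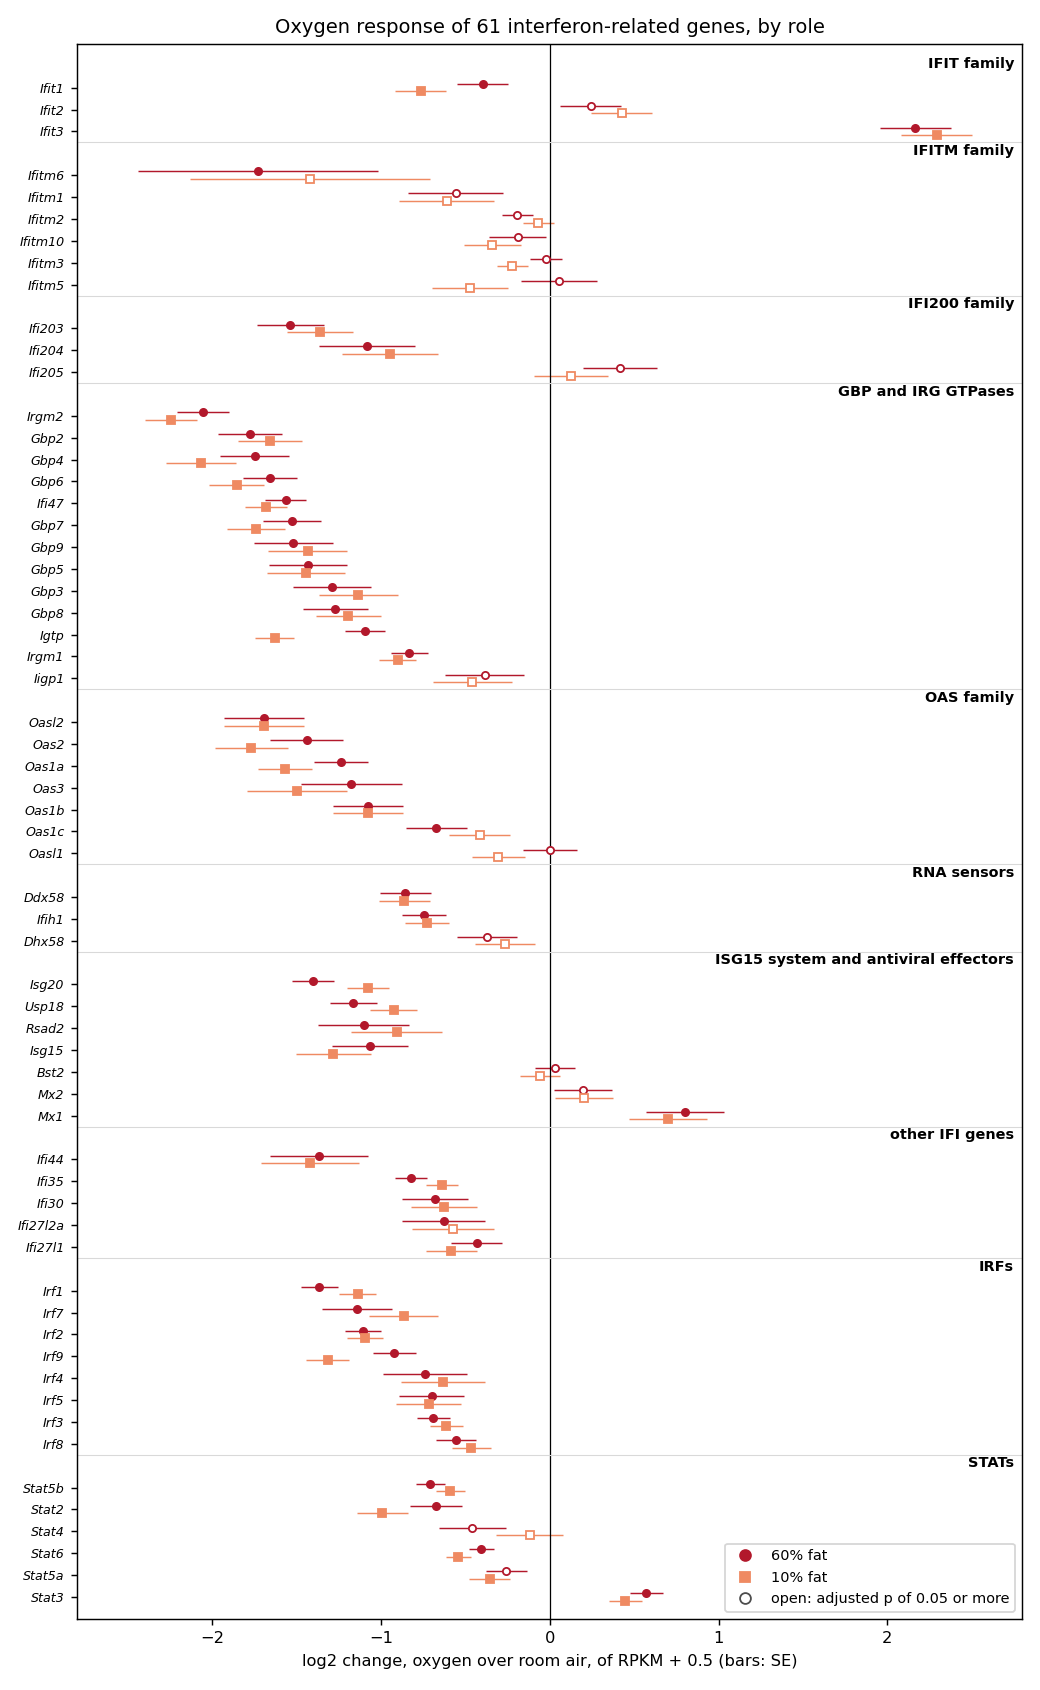
Log2 change of RPKM + 0.5, oxygen over room air, for 61 tested members in 10 role groups; circles are 60% fat, squares 10% fat, bars the SE, and open symbols have an adjusted p of 0.05 or more. The GBP and IRG GTPases lie left of 0 in both diets, Irgm2 farthest at −2.06 and −2.24, while Ifit3 stands alone at 2.17 and 2.29.

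The signalling end of the pathway was examined first. Stat2, a STAT of type I signalling (chromosome 10, 127707631 to 127729905; positions come from the deposited table; whether they follow mm8 or mm9 is not settled by the sources used here), had 8.47, 8.02 and 9.49 RPKM under oxygen, against 16.5, 12.7 and 13.4 RPKM in room air on 60% fat and 10.9, 9.51 and 7.36 RPKM under oxygen, against 22.1, 15.8 and 18.6 RPKM in room air on 10% fat. Every oxygen library lay below every room-air library (log2 change −0.68 ± 0.15 SE, adjusted p = 0.00213; log2 change −0.99 ± 0.15 SE, adjusted p = 0.000146). Irf9, the DNA-binding member of the same complex, had 13.7, 13.5 and 13.6 RPKM under oxygen, against 26.1, 25.2 and 27.2 RPKM in room air on 60% fat. On 10% fat, Irf9 had 13.1, 12.9 and 8.89 RPKM under oxygen, against 32.1, 26.2 and 29.9 RPKM in room air, again without overlap. Its log2 change was −0.92 ± 0.13 SE on 60% fat (adjusted p = 5.01e-05) and −1.32 ± 0.13 SE on 10% fat (adjusted p = 3.83e-06).

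The other STATs serve other cytokines as well. Stat3, the main mediator of interleukin-6 signals, was the STAT that rose: it had 83.5, 88.7 and 101 RPKM under oxygen, against 61.8, 58.7 and 62.2 RPKM in room air on 60% fat and 89.3, 88.3 and 99.5 RPKM under oxygen, against 66.8, 60.3 and 76.4 RPKM in room air on 10% fat. All oxygen libraries were above all room-air libraries (log2 change 0.57 ± 0.10 SE, adjusted p = 0.000242 on 60% fat; log2 change 0.45 ± 0.10 SE, adjusted p = 0.00159 on 10% fat). Its neighbours on chromosome 11, within a stretch from 100642044 to 100800825, went the other way or were not called. Stat5b, which carries growth hormone and interleukin-2 signals, fell in both diets (−0.71 ± 0.08 and −0.59 ± 0.08 SE, adjusted p = 1.6e-05 and 7.81e-05). Stat5a was called on 10% fat alone, with log2 changes of −0.26 ± 0.12 SE on 60% fat (adjusted p = 0.0836) and −0.36 ± 0.12 SE on 10% fat (adjusted p = 0.0237); whether the diets differed was tested by the interaction, at 0.10 ± 0.17 SE (adjusted p = 0.878). Stat6, which answers interleukin-4 and interleukin-13, fell by a smaller margin (−0.40 ± 0.07 and −0.54 ± 0.07 SE, adjusted p = 0.000457 and 5.7e-05). Stat4, the interleukin-12 mediator, did not pass the test (−0.46 ± 0.20 and −0.12 ± 0.20 SE). In all, 4 of 7 STATs fell on 60% fat and 5 of 7 on 10% fat, with Stat3 higher in each.

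Of the 9 IRFs, which bind ISRE-like DNA and either drive or restrain interferon genes, 8 fell in each diet. Irf1, an activator of interferon-gamma responses (chromosome 11, 53583515 to 53591876), had 23.4, 25.2 and 29.3 RPKM under oxygen, against 69.8, 67.6 and 64.6 RPKM in room air on 60% fat. On 10% fat, Irf1 had 29.8, 30.5 and 33.1 RPKM under oxygen, against 77.7, 58.02 and 73.1 RPKM in room air. The room-air libraries were all well above the oxygen libraries (log2 change −1.36 ± 0.11 SE, adjusted p = 7.64e-07; log2 change −1.14 ± 0.11 SE, adjusted p = 4e-06). Irf2, which competes with Irf1 for its sites, fell by a similar ratio, to 17.5 ± 0.834 RPKM under oxygen, against 38.4 ± 3.98 in room air on 60% fat, and to 15.6 ± 1.59, against 33.8 ± 3.93, on 10% fat (SD, n = 3 each; log2 changes −1.11 ± 0.11 and −1.09 ± 0.11 SE). Irf3, the latent factor that starts type I interferon production, had 21.8, 19.1 and 18.2 RPKM under oxygen, against 32.7, 33.7 and 29.6 RPKM in room air on 60% fat and 19.4, 21.99 and 17.4 RPKM under oxygen, against 31.5, 30.1 and 28.7 RPKM in room air on 10% fat. The groups did not overlap, and the falls were smaller than those of Irf1 in size (−0.69 ± 0.10 and −0.61 ± 0.10 SE, adjusted p = 6.4e-05 and 0.000182). Irf7, an interferon-inducible amplifier of that production, had 7.53, 6.08 and 5.06 RPKM under oxygen, against 15.5, 12.9 and 14.2 RPKM in room air on 60% fat. On 10% fat, Irf7 had 9.01, 7.57 and 4.71 RPKM under oxygen, against 15.3, 10.7 and 13.1 RPKM in room air, and its oxygen libraries lay below the room-air libraries in both diets (log2 change −1.14 ± 0.21 SE, adjusted p = 0.000402; log2 change −0.87 ± 0.21 SE, adjusted p = 0.00302).

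The IRFs tied to immune lineages fell as well. Irf8, a factor of monocytes and dendritic cells, had log2 changes of −0.56 ± 0.12 and −0.46 ± 0.12 SE (adjusted p = 0.00131 and 0.00453). Irf5, which acts downstream of Toll-like receptors, had −0.70 ± 0.19 and −0.72 ± 0.19 SE (adjusted p = 0.00703 and 0.00649). Irf4, a lymphocyte and dendritic cell factor, stood near the filter at 0.876 to 3.60 RPKM. Its call on 10% fat was −0.63 ± 0.25 SE with an adjusted p of 0.0434. That call was lost with a pseudocount of 1, without the filter, with either other scaling and without any single library of that diet. On 60% fat its groups overlapped (−0.74 ± 0.25 SE, adjusted p = 0.0203). There the call was lost without the filter, with quantile normalization, with the comparison's libraries alone and without some single libraries.

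**Figure D2:**
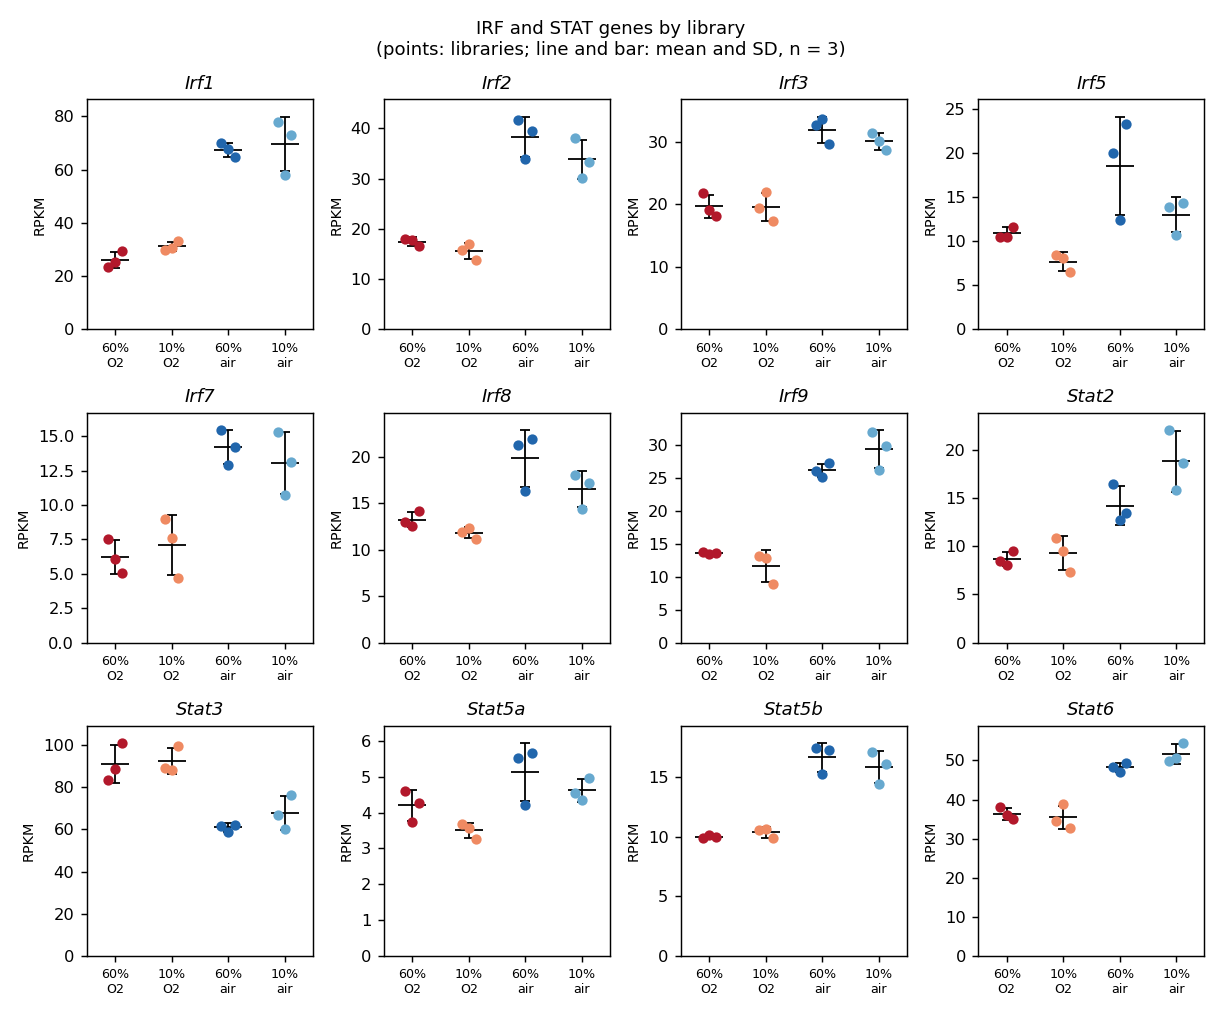
RPKM of 12 IRF and STAT genes in each library (points) with the mean and SD of each group of 3; O2 is more than 95% oxygen and air is room air, each with the diet's fat percentage. The oxygen libraries of Irf1 lie below all room-air libraries, whereas those of Stat3 lie between 83.5 and 101 RPKM, above all room-air libraries.

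Among the effectors, the guanylate-binding proteins (GBPs) and immunity-related GTPases (IRGs), which attack the vacuoles of intracellular microbes, fell in nearly every case. Of 13 tested, 12 fell in each diet, and 11 of them by at least 2-fold on the scale used. Irgm2, a regulator of the other IRGs (chromosome 11, 58028478 to 58036285), had 3.76, 4.498 and 4.28 RPKM under oxygen, against 21.9, 16.5 and 18.7 RPKM in room air on 60% fat. On 10% fat, Irgm2 had 5.62, 4.58 and 3.94 RPKM under oxygen, against 29.4, 20.02 and 23.4 RPKM in room air. The groups were far apart, with falls of 4.16-fold and 4.74-fold (log2 change −2.06 ± 0.16 SE, adjusted p = 4.8e-07; log2 change −2.24 ± 0.16 SE, adjusted p = 3.32e-07). Gbp4 (chromosome 5, 105544785 to 105568605) had 2.92, 2.99 and 3.09 RPKM under oxygen, against 15.5, 8.24 and 11.2 RPKM in room air on 60% fat and 3.64, 3.01 and 2.41 RPKM under oxygen, against 17.8, 11.7 and 13.3 RPKM in room air on 10% fat. Gbp2 (chromosome 3, 142283626 to 142300972), the most abundant GBP here, had 8.62, 10.1 and 9.79 RPKM under oxygen, against 38.3, 29.97 and 33.3 RPKM in room air on 60% fat and 15.8, 10.9 and 7.98 RPKM under oxygen, against 41.3, 32.4 and 35.6 RPKM in room air on 10% fat. Neither gene had overlapping groups (Gbp4 −1.75 ± 0.21 and −2.06 ± 0.21 SE, Gbp2 −1.77 ± 0.19 and −1.66 ± 0.19 SE, all adjusted p of at most 1.54e-05). Gbp6 had 1.15, 1.45 and 1.39 RPKM under oxygen, against 6.24, 4.81 and 4.84 RPKM in room air on 60% fat and 1.59, 1.45 and 1.22 RPKM under oxygen, against 8.29, 5.23 and 6.07 RPKM in room air on 10% fat, again apart (−1.66 ± 0.16 and −1.85 ± 0.16 SE). In the reference transcripts, 90.2% of the 50-base windows of Gbp6 also stand in another gene. No entry of the deposited table was matched to that gene, and whether reads of Gbp6 were affected was not tested.

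The remaining GTPases moved alike. Ifi47 averaged 8.21 ± 1.83 RPKM under oxygen and 24.97 ± 2.12 RPKM in room air on 60% fat (SD, n = 3 each), with log2 changes of −1.57 ± 0.12 SE on 60% fat and −1.68 ± 0.12 SE on 10% fat. Igtp, an IRG of the regulatory kind, had 7.81, 8.94 and 8.67 RPKM under oxygen, against 18.6, 16.6 and 20.9 RPKM in room air on 60% fat and 8.49, 7.896 and 6.78 RPKM under oxygen, against 28.7, 22.8 and 23.5 RPKM in room air on 10% fat. Its groups did not overlap (log2 change −1.09 ± 0.12 SE, adjusted p = 6.9e-06; log2 change −1.63 ± 0.12 SE, adjusted p = 4.58e-07). Irgm1, Gbp3, Gbp5, Gbp7, Gbp8 and Gbp9 had log2 changes from −1.53 (Gbp7) to −0.83 (Irgm1) on 60% fat and from −1.74 (Gbp7) to −0.90 (Irgm1) on 10% fat. The exception was Iigp1, an IRG that coats microbial vacuoles, at −0.38 ± 0.23 and −0.46 ± 0.23 SE (adjusted p = 0.169 and 0.109). The GBP genes lie in 2 clusters, Gbp5, Gbp7, Gbp3, Gbp1 and Gbp2 on chromosome 3 from 142159897 to 142300972 and Gbp8, Gbp9, Gbp4, Gbp10, Gbp6 and Gbp11 on chromosome 5 from 105443171 to 105775491. All 4 tested genes of the chromosome 3 cluster and all 4 tested of the chromosome 5 cluster fell in each diet. Gbp1, Gbp10 and Gbp11 were below the filter, at no more than 0.425 RPKM in any library. Fitted without the filter, Gbp10 and Oas1g of the OAS group were called lower in both diets, beside 24.9% of 20573 genes on 60% fat and 22.7% on 10% fat.

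Promoter sequence from RefSeq (build GRCm38.p6) was searched over the 250 bases before each start site, on both strands, for an ISRE core, which is the letters GAAA, any 2 bases and GAAA again, and for the GAS core TTCNNNGAA. A promoter was found by symbol or gene ID for 54 of the 75 members. The ISRE core stood in 23 of the 54 (42.6%), against 3.46% of 27025 genes of the promoter table, and the GAS core in 13 (24.1%), against 8.13%. By role, the ISRE core was most frequent in the GBP and IRG group, at 8 of 9 genes with a promoter. It stood in 1 of 8 IRFs and 2 of 6 STATs. The GBP and IRG group has 16 genes, and no promoter was found for the chromosome 5 GBP cluster or Iigp1. Ifi47 held no ISRE core and fell in both diets, and Gbp1, which holds one, was not tested. The ISRE core stood in 15 of the 32 members with a promoter that fell in both diets and in 4 of the 10 that were called in neither. A match of letters is a description and not a bound site. The 30-base windows below are those of the GBP and IRG promoters that hold the core, printed because 12 of 13 tested genes of this group fell; capitals mark the ISRE core, which reads TTTC, any 2 bases and TTTC where it lies on the other strand.
Gbp1: gtacttctaaTTTCACTTTCttctttatca
Gbp2: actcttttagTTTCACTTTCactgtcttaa
Gbp3: caggacacagTTTCAGTTTCtatttcccag
Gbp5: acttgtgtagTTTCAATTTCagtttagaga
Gbp7: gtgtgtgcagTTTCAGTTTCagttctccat
Igtp: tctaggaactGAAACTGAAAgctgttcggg
Irgm1: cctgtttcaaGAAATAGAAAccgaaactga
Irgm2: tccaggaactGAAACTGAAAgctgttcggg
In the order printed they lie at chr3:142594700-142594729, plus strand (Gbp1, which RefSeq lists as Gbp2b), chr3:142620594-142620623, plus strand (Gbp2), chr3:142559989-142560018, plus strand (Gbp3), chr3:142496759-142496788, plus strand (Gbp5), chr3:142530273-142530302, plus strand (Gbp7), chr11:58199512-58199541, plus strand (Igtp), chr11:48871431-48871460, minus strand (Irgm1) and chr11:58214903-58214932, plus strand (Irgm2). The first base of the core lies between 30 bases (Irgm1) and 165 bases (Gbp5) before the start site in these windows. The Igtp and Irgm2 windows, from neighbouring genes, have 29 of 30 bases in common. Gbp3 and Irgm1 each hold a second, overlapping match that is not printed.

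Longer stretches, the 160 bases before the start site, are shown for Irgm2, the member with the largest fall, for Irf1, whose promoter held a GAS core and no ISRE core, and for Ifit3, the member with the largest rise. Capitals mark both cores.
Irgm2: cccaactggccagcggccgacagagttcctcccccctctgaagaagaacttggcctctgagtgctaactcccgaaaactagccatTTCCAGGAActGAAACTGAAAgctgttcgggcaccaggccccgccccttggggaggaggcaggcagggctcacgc
Irf1: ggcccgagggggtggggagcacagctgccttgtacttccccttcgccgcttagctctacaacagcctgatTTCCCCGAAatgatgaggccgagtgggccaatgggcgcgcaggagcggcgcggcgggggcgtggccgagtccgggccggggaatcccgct
Ifit3: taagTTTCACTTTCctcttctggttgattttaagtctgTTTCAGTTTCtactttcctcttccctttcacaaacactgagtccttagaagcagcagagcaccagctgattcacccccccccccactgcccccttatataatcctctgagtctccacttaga
They lie at chr11:58214817-58214976, plus strand (Irgm2), chr11:53769854-53770013, plus strand (Irf1) and chr19:34583369-34583528, plus strand (Ifit3). Irgm2 has the GAS core 75 and the ISRE core 64 bases before its start. Irf1 has the GAS core at 90 bases. Ifit3 has ISRE cores at 156 and 122 bases. Of the 3 members that rose in both diets, 2 had a promoter and 1 of these held the ISRE core. Whether the core bears on the direction of change was not tested.

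The OAS enzymes make oligoadenylates that activate the RNA-degrading enzyme RNase L when double-stranded RNA is present. Of 7 tested, 6 fell on 60% fat and 5 on 10% fat. Oasl2 (chromosome 5, 115346942 to 115362254) had 5.001, 4.35 and 4.11 RPKM under oxygen, against 19.2, 14.7 and 13.4 RPKM in room air on 60% fat and 6.96, 4.805 and 2.99 RPKM under oxygen, against 19.8, 13.2 and 16.3 RPKM in room air on 10% fat. The exposures did not overlap (log2 change −1.69 ± 0.24 SE, adjusted p = 5.53e-05; log2 change −1.69 ± 0.24 SE, adjusted p = 6.39e-05). Oas1a fell by 2.36-fold on 60% fat and 2.96-fold on 10% fat (−1.24 ± 0.16 and −1.57 ± 0.16 SE), at levels between 0.662 and 4.14 RPKM. It shares 57.6% of its 50-base windows with Oas1g, which was below the filter at 0.047 to 0.178 RPKM in oxygen libraries and 0.279 to 0.708 RPKM in room-air libraries, so the reads of this pair may be split. Oas2 fell by 2.71-fold and 3.41-fold (−1.44 ± 0.22 and −1.77 ± 0.22 SE), and Oas1b and Oas3 fell in both diets too. Oas1c was called on 60% fat alone (−0.67 ± 0.18 against −0.42 ± 0.18 SE on 10% fat), while the interaction was not called (−0.26 ± 0.26 SE, adjusted p = 0.772). Oasl1, which in mice restrains the translation of Irf7, did not pass the test (0.00 ± 0.16 and −0.30 ± 0.16 SE). Oas1d, Oas1e, Oas1f and Oas1h had at most 0.157 RPKM in any library.

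The cytosolic RNA sensors RIG-I and MDA5, encoded by Ddx58 and Ifih1, fell in both diets. Ddx58 averaged 8.57 ± 1.16 RPKM under oxygen and 15.9 ± 2.38 in room air on 60% fat, and 8.38 ± 1.25 against 15.7 ± 2.52 on 10% fat (SD, n = 3 each; −0.86 ± 0.15 and −0.86 ± 0.15 SE). Ifih1 changed by −0.75 ± 0.13 and −0.73 ± 0.13 SE (adjusted p = 0.000344 and 0.000471). Dhx58, whose product LGP2 modulates both sensors, had −0.37 ± 0.18 and −0.27 ± 0.18 SE and was not called. The DNA-binding IFI200 proteins behaved unevenly. Ifi203 fell by 2.901-fold on 60% fat and 2.57-fold on 10% fat (log2 change −1.54 ± 0.20 SE, adjusted p = 2.95e-05; log2 change −1.36 ± 0.20 SE, adjusted p = 8.7e-05). Ifi204 fell by 2.12-fold and 1.93-fold (−1.08 ± 0.28 and −0.94 ± 0.28 SE, adjusted p = 0.00542 and 0.0124), with room-air values spread from 3.26 to 7.80 RPKM; without the third oxygen or the third room-air library of 10% fat its adjusted p there was 0.0545 or 0.0559. Ifi205 had 0.42 ± 0.22 and 0.12 ± 0.22 SE and was not called. Ifi204 and Ifi205 share 30.2% and 49.6% of their 50-base windows with other genes, mostly Ifi211, and Ifi202b had at most 0.189 RPKM.

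ISG15 is a ubiquitin-like protein that is attached to other proteins after interferon exposure, and Usp18 removes it and also dampens the type I receptor. Isg15 (chromosome 4, 155573532 to 155574927) had 9.29, 9.44 and 7.76 RPKM under oxygen, against 16.7, 20.02 and 20.3 RPKM in room air on 60% fat. On 10% fat, Isg15 had 12.3, 8.77 and 5.203 RPKM under oxygen, against 24.5, 19.02 and 19.4 RPKM in room air. The groups did not overlap (log2 change −1.06 ± 0.22 SE, adjusted p = 0.00128; log2 change −1.28 ± 0.22 SE, adjusted p = 0.00037). Usp18 (chromosome 6, 121195923 to 121220935) had 7.04, 6.17 and 5.21 RPKM under oxygen, against 13.8, 15.96 and 13.2 RPKM in room air on 60% fat and 6.598, 7.87 and 5.296 RPKM under oxygen, against 13.4, 13.2 and 11.8 RPKM in room air on 10% fat, also apart (log2 change −1.16 ± 0.14 SE, adjusted p = 1.73e-05; log2 change −0.92 ± 0.14 SE, adjusted p = 0.000122). Isg20, an RNA exonuclease, had 23.5, 24.6 and 24.6 RPKM under oxygen, against 56.5, 72.5 and 66.97 RPKM in room air on 60% fat and 31.3, 31.02 and 27.2 RPKM under oxygen, against 55.7, 77.8 and 58.5 RPKM in room air on 10% fat. Its oxygen libraries all lay below its room-air libraries (log2 change −1.40 ± 0.12 SE, adjusted p = 1.56e-06; log2 change −1.08 ± 0.12 SE, adjusted p = 1.52e-05). Rsad2, which encodes the antiviral enzyme viperin, fell by 2.15-fold and 1.88-fold (−1.10 ± 0.27 and −0.91 ± 0.27 SE). Bst2, the tether that holds budding virions at the cell surface, was abundant and not called: it had 105, 117 and 107 RPKM under oxygen, against 101, 127 and 96.4 RPKM in room air on 60% fat and 113, 123 and 94.5 RPKM under oxygen, against 125, 113 and 106 RPKM in room air on 10% fat. Its groups overlapped, and the 95% interval of the change was −0.23 to 0.29 on 60% fat and −0.32 to 0.20 on 10% fat.

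The Mx genes encode dynamin-like antiviral GTPases, and Mx1 is known to be defective in most inbred mouse strains. Mx1 (chromosome 16, 97668641 to 97684513) rose at low levels, with 3.64, 3.05 and 2.505 RPKM under oxygen, against 2.07, 1.12 and 1.51 RPKM in room air on 60% fat. On 10% fat, Mx1 had 3.02, 2.83 and 1.59 RPKM under oxygen, against 1.704, 1.0 and 1.23 RPKM in room air. The groups were apart on 60% fat and overlapped on 10% fat (log2 change 0.80 ± 0.23 SE, adjusted p = 0.00934; log2 change 0.70 ± 0.23 SE, adjusted p = 0.0197), where the call was lost without the first or second oxygen library or the second room-air library (adjusted p = 0.0823, 0.0728 and 0.0774). Its neighbour Mx2 had 0.19 ± 0.17 and 0.20 ± 0.17 SE and was not called. The largest rise among the members was that of Ifit3. Ifit3 (chromosome 19, 34658018 to 34663472) had 57.7, 103 and 73.98 RPKM under oxygen, against 19.8, 13.4 and 17.1 RPKM in room air on 60% fat and 71.02, 82.9 and 54.8 RPKM under oxygen, against 14.2, 15.3 and 11.6 RPKM in room air on 10% fat. Every oxygen library stood far above every room-air library, a rise of 4.49-fold and 4.89-fold (log2 change 2.17 ± 0.21 SE, adjusted p = 3.14e-06; log2 change 2.29 ± 0.21 SE, adjusted p = 2.64e-06). It shares 51.2% of its 50-base windows with its copy Ifit3b, an entry listed as I830012O16Rik, which had 3.20 to 5.90 RPKM in oxygen libraries and 4.09 to 5.48 RPKM in room-air libraries.

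The genes on either side of Ifit3 on chromosome 19 were not called higher with the main settings. Ifit1, which binds foreign RNA by its cap, had 8.31, 8.81 and 7.09 RPKM under oxygen, against 9.98, 11.1 and 11.2 RPKM in room air on 60% fat and 10.7, 8.37 and 6.23 RPKM under oxygen, against 14.04, 15.2 and 13.9 RPKM in room air on 10% fat. Its oxygen libraries lay lower in both diets (log2 change −0.40 ± 0.15 SE, adjusted p = 0.0361; log2 change −0.76 ± 0.15 SE, adjusted p = 0.000885), though the call on 60% fat was lost under some alternative settings, at adjusted p values from 0.0591 to 0.132. Ifit2, a further member that binds RNA rich in A and U, had 0.24 ± 0.18 and 0.43 ± 0.18 SE (adjusted p = 0.262 and 0.0595) with overlapping groups. On 10% fat Ifit2 was called higher with median-ratio scaling, quantile normalization and a block over all libraries. The same call was gained without the third oxygen or the first room-air library of that diet. The 3 genes span 34625183 to 34724499. Within this stretch Ifit3 was higher and Ifit1 lower, while Ifit2 was not called with the main settings.

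**Figure D3:**
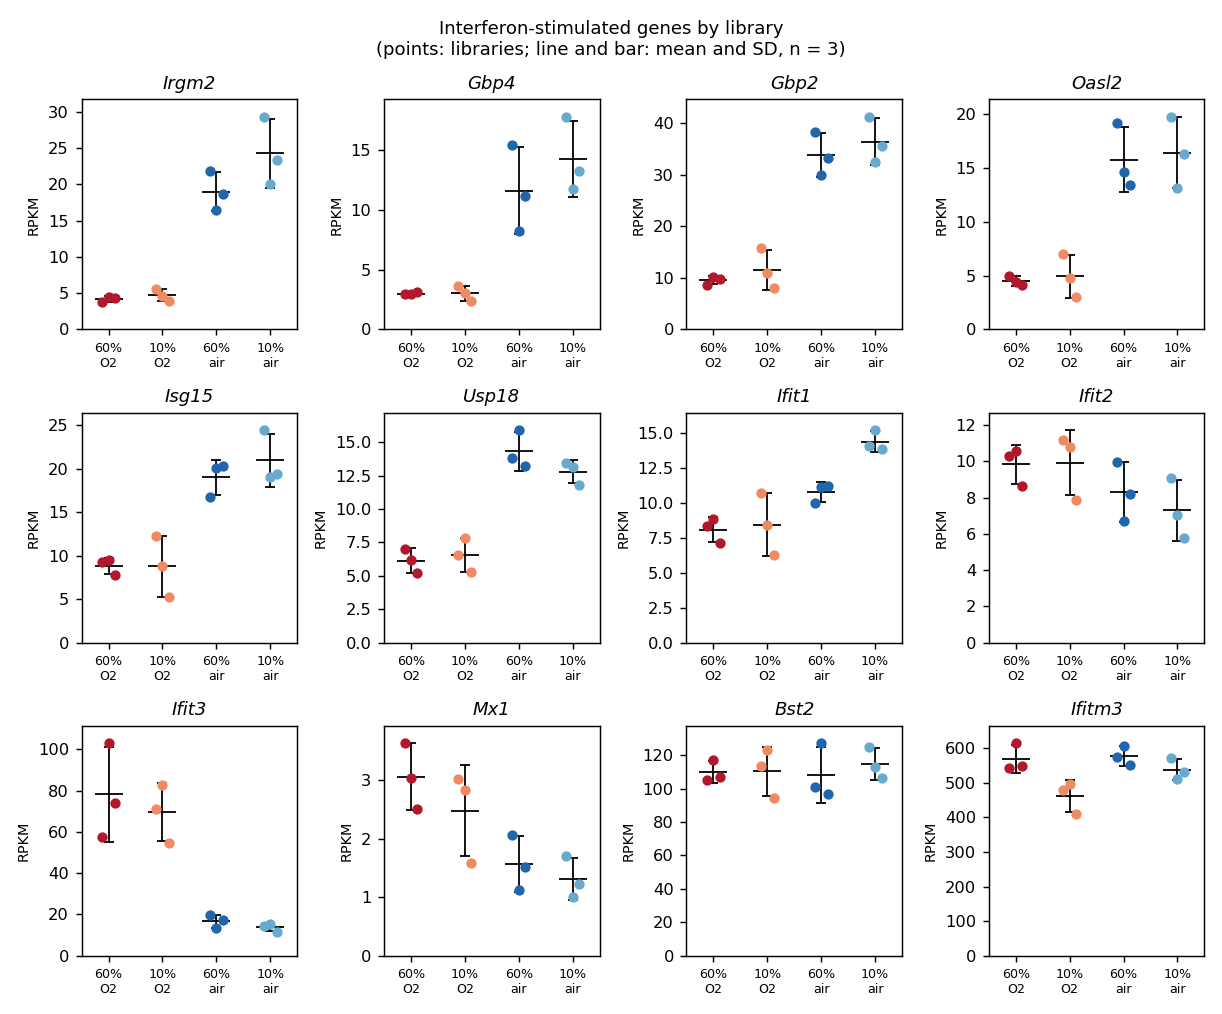
RPKM of 12 effector genes in each library (points) with the mean and SD of each group of 3, on axes that start at 0; O2 is more than 95% oxygen and air is room air, each with the diet's fat percentage. Irgm2, Gbp4, Gbp2 and Oasl2 are low in all 6 oxygen libraries, Ifit3 is high in them at 54.8 to 103 RPKM, and the groups of Bst2 overlap.

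The IFITM proteins sit in membranes and hinder virus entry, and the genes Ifitm2 and Ifitm3 had the highest RPKM of all members. Ifitm3 had 544, 615 and 548 RPKM under oxygen, against 576, 607 and 551 RPKM in room air on 60% fat and 479, 496 and 411 RPKM under oxygen, against 571, 511 and 532 RPKM in room air on 10% fat. The groups overlapped on 60% fat, and on 10% fat the oxygen libraries lay lower without a call (−0.02 ± 0.09 SE, adjusted p = 0.842; −0.22 ± 0.09 SE, adjusted p = 0.0542). Ifitm2 averaged 441 ± 36.5 RPKM under oxygen and 503 ± 21.01 in room air on 60% fat (−0.19 ± 0.09 SE, not called), and 48.5% of its 50-base windows stand in other genes too. Ifitm1 had −0.56 ± 0.28 and −0.61 ± 0.28 SE, and Ifitm10 and Ifitm5, the last known from bone, had 0.759 to 3.0 RPKM and no call. Ifitm6 was the IFITM gene called, on 60% fat, where it had 6.44, 3.64 and 12.3 RPKM under oxygen, against 27.98, 11.6 and 38.1 RPKM in room air. These groups overlapped, the adjusted p was 0.0494 (−1.73 ± 0.71 SE), and leaving out single libraries raised it to as much as 0.169. On 10% fat, Ifitm6 had 1.48, 1.21 and 13.1 RPKM under oxygen, against 11.5, 5.31 and 12.1 RPKM in room air (−1.42 ± 0.71 SE, adjusted p = 0.102). The summed RPKM of 11 neutrophil markers in the table was 437, 185 and 532 in 60% fat oxygen libraries, 180.1, 114 and 1821 in 10% fat oxygen libraries, 1087, 863 and 3802 in 60% fat room-air libraries and 964, 511 and 2898 in 10% fat room-air libraries, in the same library order. Ifitm6 was highest in the third library of every group, as was that sum; the part of neutrophils in its values was not tested.

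Of the other IFI genes, 5 of 5 tested fell on 60% fat and 4 of 5 on 10% fat. Ifi44 fell by 2.58-fold and 2.68-fold (log2 change −1.37 ± 0.29 SE, adjusted p = 0.00133; log2 change −1.42 ± 0.29 SE, adjusted p = 0.00111). Ifi35 fell by a smaller and tighter margin (−0.82 ± 0.10 and −0.64 ± 0.10 SE, adjusted p = 1.36e-05 and 0.000117). Ifi30, a lysosomal thiol reductase of antigen-presenting cells, averaged 70.2 ± 8.84 RPKM under oxygen and 114 ± 26.98 in room air on 60% fat (SD, n = 3 each; −0.68 ± 0.20 SE on 60% fat, −0.63 ± 0.20 SE on 10% fat). Ifi27l1 fell in both diets (−0.43 ± 0.15 and −0.59 ± 0.15 SE), and Ifi27l2a on 60% fat alone (−0.63 ± 0.24 SE, adjusted p = 0.0384; −0.57 ± 0.24 SE on 10% fat, adjusted p = 0.0592), with an interaction of −0.06 ± 0.34 SE that was not called. On 60% fat the calls of both genes were lost without the filter, with median-ratio scaling and without any single 60% fat oxygen library. Ifi27l2b and Ifi44l were below the filter.

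**Figure D4:**
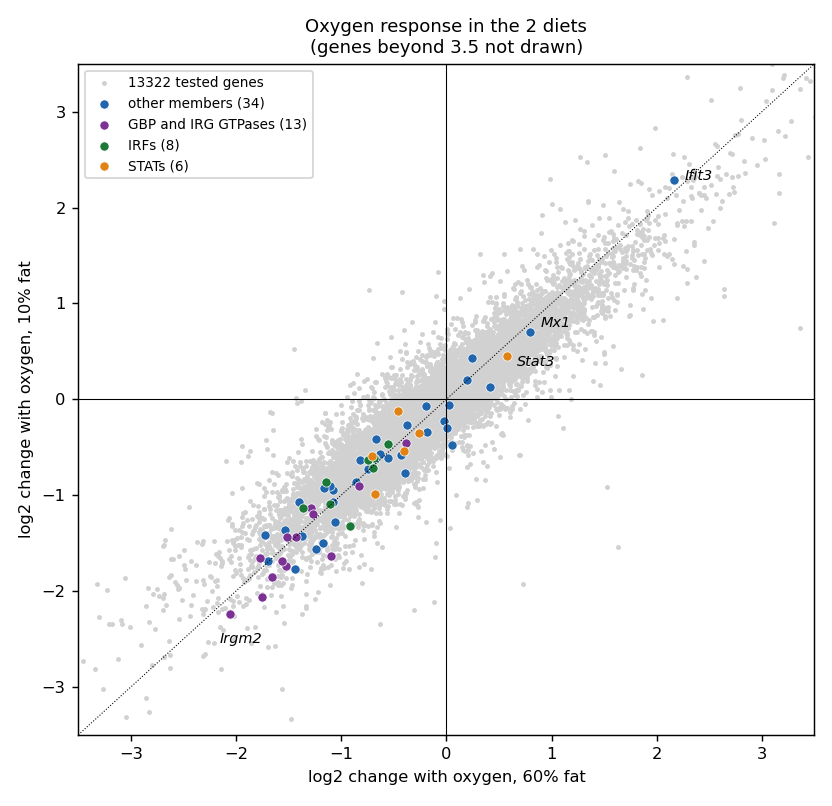
Log2 change of RPKM + 0.5 with oxygen on 60% fat (horizontal) and on 10% fat (vertical) for 13322 tested genes (grey) and 61 tested members among them (colours); 24 genes beyond 3.5 on either axis are not drawn, and the dotted line marks equal changes. The members lie near that line, most of them in the lower left, with Ifit3, Mx1 and Stat3 in the upper right. Values on each axis come from separate oxygen and room-air libraries.

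Other genes of the pathway were counted from lists. The interferons themselves were scarcely seen: 0 of the 17 ligand genes measured passed the filter, and the 11 numbered Ifna genes were listed at 0 in every library. Ifnb1, the early type I interferon, had 0.083, 0 and 0.161 RPKM in 60% fat oxygen libraries and 0, 0.073 and 0 in 10% fat oxygen libraries, and was listed at 0 in all room-air libraries. Ifng, made by T and NK cells, had 0.10, 0.052 and 0 RPKM in 60% fat oxygen libraries and 0.054, 0.31 and 0 in 10% fat oxygen libraries, against 0.294, 0.224 and 0.134 in 60% fat room-air libraries and 0.183, 0.158 and 0.324 in 10% fat room-air libraries. Fitted without the filter, neither was called. Ifng had log2 changes of −0.38 ± 0.18 SE on 60% fat, where its groups did not overlap (adjusted p = 0.124), and −0.24 ± 0.18 SE on 10% fat (adjusted p = 0.353). Ifnb1 had 0.21 ± 0.09 and 0.07 ± 0.09 SE (adjusted p = 0.0983 and 0.687). Of the other ligand genes, Ifnab, Ifne, Ifnk and Ifnz were at or below 0.186 RPKM throughout. Of 5 receptor chains, 3 fell in each diet, beside 36.5% of all tested genes on 60% fat and 34.2% on 10% fat. They were Ifnar1 of the type I receptor (−0.35 ± 0.09 and −0.42 ± 0.09 SE), Ifngr2 of the type II receptor (−0.56 ± 0.10 and −0.77 ± 0.10 SE) and Il10rb, which type III interferons share with interleukin-10 (−0.66 ± 0.08 and −0.68 ± 0.08 SE). Ifnar2 had −0.16 ± 0.07 and −0.12 ± 0.07 SE and was not called, and Ifngr1 was called higher on 10% fat and not on 60% fat (0.01 ± 0.07 SE on 60% fat; 0.26 ± 0.07 SE on 10% fat, adjusted p = 0.00806), with an interaction that was not called (−0.25 ± 0.10 SE, adjusted p = 0.439).

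Of the 4 kinases, Tyk2, which sits on the type I receptor, had 6.31, 4.78 and 5.63 RPKM under oxygen, against 13.4, 11.5 and 13.5 RPKM in room air on 60% fat and 5.37, 5.67 and 5.01 RPKM under oxygen, against 12.2, 12.3 and 11.6 RPKM in room air on 10% fat. Its oxygen libraries all lay below its room-air libraries (log2 change −1.14 ± 0.11 SE, adjusted p = 2.28e-06; log2 change −1.10 ± 0.11 SE, adjusted p = 3.75e-06), and Jak3 fell too (−0.41 ± 0.14 and −0.41 ± 0.14 SE). Jak1 (0.04 ± 0.12 and 0.10 ± 0.12 SE) and Jak2 (0.28 ± 0.14 and 0.18 ± 0.14 SE) were not called. Over all tested genes 26.3% rose and 36.5% fell on 60% fat, 62.8% in either direction. On 10% fat 25.3% rose and 34.2% fell, 59.5% in either direction. Beside these shares, which hold for the kinases too, 5 of 11 inhibitors of JAK-STAT signalling rose and 2 fell on 60% fat. On 10% fat 5 of the inhibitors rose and 3 fell. Socs3, the feedback inhibitor of STAT3 signals, had 37.7, 41.6 and 71.6 RPKM under oxygen, against 18.2, 21.5 and 20.2 RPKM in room air on 60% fat and 50.6, 51.05 and 127 RPKM under oxygen, against 24.1, 19.4 and 35.4 RPKM in room air on 10% fat. It rose in both diets (log2 change 1.26 ± 0.34 SE, adjusted p = 0.00603; log2 change 1.42 ± 0.34 SE, adjusted p = 0.00304), whereas Socs1, the main brake on interferon-gamma signals, was not called (−0.03 ± 0.17 and −0.35 ± 0.17 SE). Of 15 sensors and adaptors upstream of interferon production, 6 fell and 2 rose on 60% fat, and 8 fell and 2 rose on 10% fat. The share of them that fell on 60% fat was close to the 36.5% of all tested genes that fell there, while 34.2% fell on 10% fat.

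Interferon-inducible genes outside the member families moved in the same way by count. Of 41 tested, 31 fell and 2 rose on 60% fat (median log2 change −0.72), beside 36.5% and 26.3% of all tested genes. On 10% fat 26 fell and 2 rose (median −0.63), beside 34.2% and 25.3%. The largest falls by the mean of both diets were those of Parp14 (−1.72 ± 0.14 and −1.73 ± 0.14 SE), an ADP-ribosyltransferase, Slfn1 (−1.69 ± 0.44 and −1.40 ± 0.44 SE) and Ciita (−1.19 ± 0.19 and −1.77 ± 0.19 SE), the master regulator of MHC class II genes. Cxcl10, a chemokine for activated T cells, rose, with 5.54, 6.48 and 7.81 RPKM under oxygen, against 1.32, 2.24 and 3.42 RPKM in room air on 60% fat and 8.27, 5.82 and 7.43 RPKM under oxygen, against 2.16, 1.91 and 3.47 RPKM in room air on 10% fat. Its groups did not overlap (log2 change 1.39 ± 0.26 SE, adjusted p = 0.000543; log2 change 1.37 ± 0.26 SE, adjusted p = 0.000661). Lgals3bp, a secreted glycoprotein, was the other that rose (0.28 ± 0.09 and 0.39 ± 0.09 SE). Cxcl9, a chemokine driven mainly by interferon-gamma, was low and not called (−0.48 ± 0.44 and −0.48 ± 0.44 SE).

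Markers of immune, epithelial and other cells were counted beside the interferon genes, against the 36.5% of all tested genes that fell on 60% fat and the 34.2% that fell on 10% fat. Of 14 T cell markers 12 fell on 60% fat, and 6 fell and 1 rose on 10% fat; their summed level was 41.5 to 44.6 RPKM in 60% fat oxygen libraries and 31.9 to 44.8 in 10% fat oxygen libraries, against 68.7 to 94.8 in 60% fat room-air libraries and 56.4 to 71.4 in 10% fat room-air libraries. Of 8 tested NK cell markers 5 fell in each diet, with sums of 32.5 to 39.1 and 22.8 to 35.7 RPKM under oxygen on 60% and 10% fat, against 57.0 to 93.1 and 42.3 to 59.2 RPKM in room air. Of 12 monocyte and macrophage markers 6 fell on 60% fat and 7 on 10% fat, with sums of 1799 to 2249 and 2120.2 to 2491 RPKM under oxygen, against 5729 to 6938 and 5326 to 9866 RPKM in room air; Lyz2, which alveolar type 2 cells also express, is among them. Of 10 dendritic cell markers, Bst2 included, 6 and 4 fell, with sums of 155 to 167 and 145 to 175 RPKM under oxygen, against 179 to 183 and 167 to 200.2 RPKM in room air. Of 10 alveolar type 2 cell markers 9 and 8 fell, and of 15 endothelial markers 9 fell and 1 rose on 60% fat and 5 fell on 10% fat. B cell markers fell in 4 of 10 cases on 60% fat, and on 10% fat 1 fell and 2 rose. The shares that fell were close to those of all tested genes for B cell markers on 60% fat and for dendritic and endothelial markers on 10% fat. They were also close for alveolar macrophage markers in each diet, and not far above for T cell markers on 10% fat. For neutrophil markers the share called lower lay below that of all tested genes in each diet. Their median log2 change was nevertheless −1.61 on 60% fat and −1.72 on 10% fat, so few calls do not mean small changes. Of 6 club cell markers 4 fell in each diet (median log2 change −2.73 and −2.15), with sums of 15441 to 26570 RPKM in oxygen libraries and 105777 to 184848 RPKM in room-air libraries. All 6 tested ciliated cell markers fell in each diet, with sums of 99.3 to 116 RPKM in oxygen libraries and 169 to 222 RPKM in room-air libraries. Of 8 alveolar type 1 cell markers 5 fell and 1 rose on 60% fat and 4 fell on 10% fat. Alveolar macrophage markers were mixed, with 3 of 12 higher and 4 lower on 60% fat and 1 higher and 4 lower on 10% fat (median −0.10 and −0.04). Of 9 tested neutrophil markers 2 fell in each diet. Alveolar type 2 cell markers, which mark the tissue as lung, summed to 12499 to 19909 RPKM in oxygen libraries and 30338 to 43782 RPKM in room-air libraries. The sums of 10 cardiac muscle markers, all lower in each diet, were 34.5 to 123 RPKM in oxygen libraries and 373 to 599 RPKM in room-air libraries. No listed marker was under 0.1 RPKM in all libraries, and the part of these cell types in the changes of the interferon genes was not tested.

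The diet was compared next, as 60% against 10% fat within each exposure. No member was called in oxygen, in room air or in the interaction, the difference between the oxygen effects, 60% minus 10% fat (limma, adjusted p under 0.05). Over all tested genes the shares called were 0.00751% in oxygen, 0.15% in room air and 0.0375% for the interaction. Under oxygen 7 of the 63 members lay wholly higher on 60% fat and 2 wholly lower, beside 11.6% and 6.58% of all tested genes. In room air 2 members lay wholly higher and 6 wholly lower, beside 8.61% and 5.43%. At an unadjusted p under 0.05 there were 5 members in oxygen, 7 in room air and 3 in the interaction, of 63 each, beside 8.08%, 12.2% and 10.3% of all tested genes. By unadjusted p the members' shares were thus not above those of all genes. The median difference of the members was 0.01 in each of these comparisons, with 33 positive and 30 negative. The 95% interval of the difference lay within a log2 value of 1 on either side of 0 for 62 of 63 members in oxygen, 60 in room air and 58 in the interaction; the exceptions were Ifitm6 in oxygen, Ifitm1, Ifitm5 and Ifitm6 in room air, and Ifitm5, Ifitm6, Ifi204, Oas3 and Rsad2 in the interaction. Under oxygen the smallest p belonged to Ifitm3, whose values, given above, were all higher on 60% fat than on 10% fat (0.30 ± 0.09 SE, interval 0.10 to 0.50, adjusted p = 0.42). Irf5 had 10.5, 10.5 and 11.7 RPKM on 60% fat and 8.49, 8.08 and 6.54 RPKM on 10% fat under oxygen, without overlap (0.48 ± 0.19 SE, interval 0.06 to 0.90, adjusted p = 0.553). Irf1 and Isg20 lay lower on 60% fat under oxygen without overlap (−0.26 ± 0.11 and −0.29 ± 0.12 SE, adjusted p = 0.562 and 0.569).

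In room air the smallest p was that of Ifitm5, with 0.759, 1.79 and 1.43 RPKM on 60% fat and 2.86, 2.09 and 3.0 RPKM on 10% fat (−0.82 ± 0.23 SE, interval −1.31 to −0.33, adjusted p = 0.166). All its 60% fat libraries were lower, and without the second 60% fat room-air library its adjusted p was 0.0478. Leaving out that library also called Irf4 and Irf5 higher on 60% fat in room air, so 2 members were then higher and 1 lower, beside 1.89% and 0.752% of 13303 genes. The fit to all libraries called 13 genes higher and 7 lower. Igtp, Ifit1 and Stat2 stood lower on 60% fat in room air (−0.41 ± 0.12, −0.40 ± 0.15 and −0.39 ± 0.15 SE; adjusted p = 0.187, 0.31 and 0.331). The 60% fat libraries of Igtp and Ifit1 lay below all 10% fat libraries, and those of Stat2 overlapped with them. Among the smallest p in the interaction were those of Igtp (0.54 ± 0.17 SE, interval 0.17 to 0.90, adjusted p = 0.301), Irf9 (0.40 ± 0.18 SE, adjusted p = 0.477) and Isg20 (−0.33 ± 0.18 SE, adjusted p = 0.557). With the replicate number as a block within each exposure, Ifitm6 was higher on 60% fat in room air (log2 difference 1.31 ± 0.29 SE, adjusted p = 0.0492), where the block raised the share of all genes called to 3.5%, with 2.37% called higher. Its room-air values overlapped between the diets, and without the block its adjusted p was 0.496. In oxygen and in the interaction the block called no member, with 0.766% and 1.82% of all genes called. At an unadjusted p under 0.05 the block had 10 members in oxygen, 19 in room air and 5 in the interaction, beside 15.7%, 22% and 19.2% of all tested genes.

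**Figure D5:**
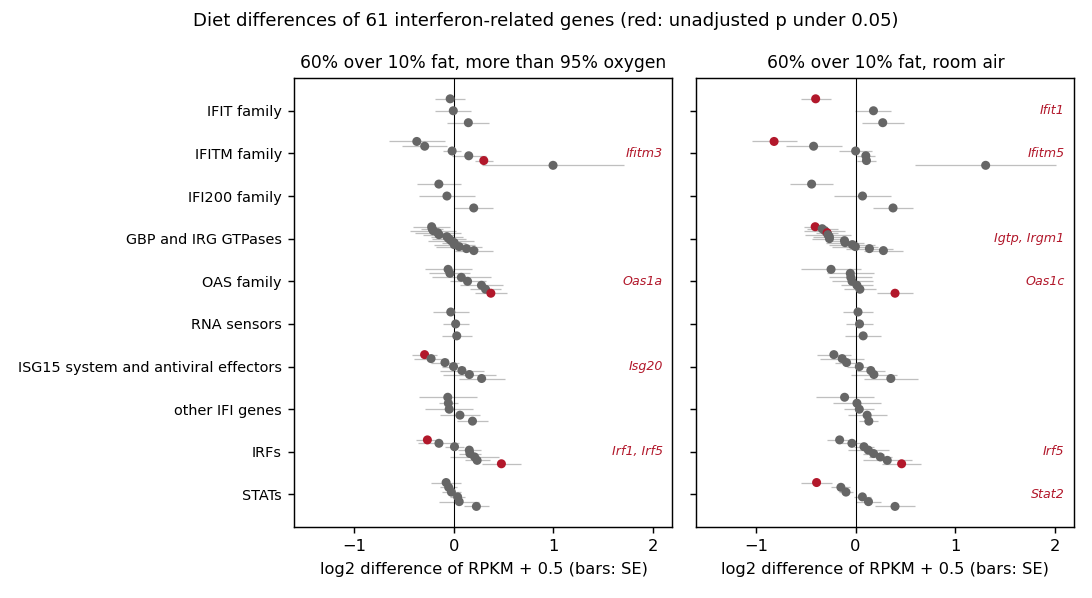
Log2 difference of RPKM + 0.5, 60% over 10% fat, for 61 tested members by role under more than 95% oxygen (left) and in room air (right); bars are the SE, and red points, named at the right edge, have an unadjusted p under 0.05. The 5 and 7 red points scatter over the roles and to both sides of 0, and none has an adjusted p under 0.05.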

How the data were processed

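The members and gene lists were chosen with earlier results of these data known. RPKM per gene were deposited by the authors in a single table that also gives a position and a status per library; per the submitters' processing notes, bcl2fastq 2.19 converted the reads and TopHat2 2.0.11 aligned them, and the builds mm8 and mm9 are named. The sources used here do not say how the RPKM were computed or whether strand was used. RPKM divide out depth and hold no read counts, so counts were not tested; rough depths, taken from the spacing of low RPKM, bound how precisely thinly covered genes are known.

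Of 20793 entries, 208 with a status of too little data were dropped, and 85 failed values were set to missing. Tested were 13324 with at least 1 RPKM in 3 or more of 12 libraries and no group with fewer than 2 values. Group means of log2(RPKM + 0.5) over all 12 libraries were fitted with limma 3.58.1 (R 4.3.3), letting the variance follow the mean level (8 residual and 4.26 prior degrees of freedom). Two-sided p-values were adjusted by Benjamini and Hochberg over all tested genes and called at 0.05, and intervals are 95%. The script was tested on simulated data of this design.

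Values in every library are given for the 6 largest falls and all 3 rises among members called in both diets. They are also given for the 4 members with the smallest p in each diet comparison and the interaction. The same holds for Irf1, Irf3, Irf7, Irf9, Stat2, Stat3, Isg15 and Usp18. The exceptions in the text are Irf5, given in oxygen libraries alone, and Ifitm5, given in room-air libraries alone. Of the members so chosen, 2 are not reported here. Other members complete their role group; Bst2, Ifitm6, Tyk2, Socs3 and Cxcl10 were given values in every library after those values were seen.

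To see whether replicate numbers pair the libraries, each library's deviations from its group mean were correlated across genes. Within an exposure, pairs that share a number had r from 0.293 to 0.486 (6 pairs); across exposures it ran from −0.131 to 0.22 (12 pairs). Diet comparisons were therefore repeated with the number as a block inside an exposure. Other alternatives were pseudocounts of 1 and 0.1, no filter or one at 5 RPKM, median-ratio scaling, quantile normalization, no trend, a comparison's libraries alone, a block over all libraries, and each library left out in turn. Shared sequence was counted as 50-base windows of GENCODE M21 transcripts, in which 73 members were matched; 12 members, 10 of them tested, shared more than 20% with another gene. Figures were drawn with Python 3.11.15 and matplotlib 3.10.9.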

Additional observations from a re-analysis of the deposited data

How the results depend on the processing

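Results were counted for members chosen by rule and, per oxygen comparison, the 2 with the smallest p of each role group, where still tested. Of 1105 results over all alternatives, 1074 kept their direction and their side of the threshold, 22 lost the call, 9 gained one and 0 reversed. The calls lost in this count were those of Ifit1 and Ifitm6 on 60% fat and of Mx1 and Ifi204 on 10% fat. Other members lost calls too, among them Ifi27l1, Ifi27l2a, Irf4 and Oas1c on 60% fat, and Irf4, Stat5a, Rsad2 and Ifi30 on 10% fat. The filter at 5 RPKM kept 40 of 49 and 37 of 46 calls, as the other members were no longer tested. With each library left out in turn, the members called on 60% fat ran from 41 to 45 lower and from 3 to 5 higher, and on 10% fat from 39 to 44 lower and from 2 to 4 higher. For the diet, members called in room air ran from 0 to 2 higher and from 0 to 1 lower, the highest values coming without the second 60% fat room-air library; in oxygen and in the interaction they stayed at 0. Quantile normalization called 5 members higher on 10% fat, against 3, adding Mx2 and Ifit2; the cause was not tested. Median-ratio scaling kept 45 of 49 members called on 60% fat and 45 of 46 on 10% fat, while over all genes the share of calls that were higher became 49.9% and 49.7%, against 41.9% and 42.5%.

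With the replicate number as a block within each exposure, 1 member, Ifitm6, was called higher on 60% fat in room air, against 0 without the block, and this pairing of libraries changed no other diet call of a member. Over all genes the block called 102 in oxygen, 466 in room air and 243 for the interaction, against 1, 20 and 5, and these are the highest counts of any alternative run; the lowest were 0, 1 and 0. A block over all libraries, where numbers do not pair across exposures, kept all 49 and 46 oxygen calls and gained lower calls for Stat4 and Ifitm1 on 60% fat and for Ifi27l2a, Oas1c, Ifitm6, Ifitm1 and Ifitm3 on 10% fat, and a higher one for Ifit2 on 10% fat; it called 38% and 35.8% of all genes lower. Without the filter, Gbp10 and Oas1g were called lower under oxygen in both diets. A single read is worth more RPKM in a short gene, so depth limits the values near or below 1 RPKM.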
